A study of Mus musculus with 8 samples.

Results

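The response of wild-type macrophages to LPS was read from 4 bead arrays, 2 of LPS-stimulated cells and 2 of unstimulated cells. LPS is the lipopolysaccharide of the outer membrane of Gram-negative bacteria. Both groups were primary macrophages grown from the bone marrow of 10-week-old male mice, wild type on the c57Bl6/J background. The same groups with the genotype Bcl6-/- on that background (2 LPS and 2 unstimulated arrays) brought the study to 8 arrays, and are used here only where the wild-type response is set against theirs. All probes were taken whose detection p-value lay below 0.01 on 2 or more of the 4 wild-type arrays, whatever their change with LPS. These were 13382 of the 45281 probes, of which 11683 had 1 gene symbol and stood for 7837 of the 19053 genes named here, each read by its brightest kept probe. The other 1699 kept probes are unnamed here and entered the fit and its adjustment only. Every group has n = 2 arrays, which the submitters label technical replicates: a p-value here reflects how far such arrays spread, and the spread between mice or cultures does not enter it. How much LPS was used, and for how long, is not stated in the labels.

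Macrophages bind LPS through Cd14, which hands it to a complex of the receptor Tlr4 and its partner Ly96. The adaptor Myd88 then leads to NF-kappaB and MAP kinases and to genes of cytokines and chemokines, and the adaptor Ticam1 leads to Irf3 and type I interferon. Interferon acts back on the cell through its receptor and induces antiviral genes, while inhibitors made in the same response, such as Nfkbia, Tnfaip3 and Socs3, limit it.

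The wild-type arrays detected 12747 and 13029 probes with LPS, against 13126 and 12560 without. Probes just outside the rule, detected on 1 of 4 arrays, had a median highest signal of 6.0 on the log2 scale, and those just inside, detected on 2, one of 6.35. Replicate arrays lay within 0.5 log2 units of each other for 95.8% of genes with LPS and for 96.0% without. The macrophage identity of the cells was checked on a list of markers: 18 of 18 markers on the array were detected on all 4 arrays, with summed linear signals of 221567 and 235202 on the LPS arrays, against 235613 and 238016 on the unstimulated arrays. Among markers of granulocytes and their precursors 12 of 15 were detected, with sums of 19554 and 19610 with LPS, against 23746 and 26590 without. There 0 were called higher and 2 lower, Prtn3 and Mpo, and the part of such cells in the results was not tested. Of 12 dendritic cell markers 10 were not detected on 2 arrays, Flt3, Zbtb46 and Ccr7 among them, and Fscn1 and Kit were. Of these last 2, 1 was detected on the LPS arrays alone and called higher. Its fitted change of 2.05 rests on an undetected unstimulated signal, so the size of this rise is not determined. Its fitted rise was larger in wild type than in the Bcl6-/- groups. The part of dendritic cells in the results was not tested. None of 11 lymphocyte, 8 mast cell, 7 erythroid and 13 stromal markers was detected on 2 arrays.

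Against this background, 622 of 7837 genes were called higher with LPS (7.94%) and 533 lower (6.80%). Calls needed both an adjusted p below 0.05 by limma and 2-fold or more, and each change stands as a log2 value ± its fitted standard error. Over the 13382 probes the calls were 1133 higher (8.47%) and 797 lower (5.96%). Among the large changes rises outnumbered falls. The change reached 2 log2 units in 181 genes called higher and 74 called lower, 3 in 66 and 8, and 4 in 21 and 1. The median of the called rises was 1.54 and that of the called falls -1.32. Over all genes the changes ran from -4.04 to 6.62 around a median of -0.13. At an adjusted p below 0.05, 747 genes lay 2-fold or more above that median and 413 lay 2-fold or more below it. That p is for a change from 0, not from the median. Fewer cells making a transcript and less of it in each cell cannot be told apart in such bulk samples.

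**Figure D1:**
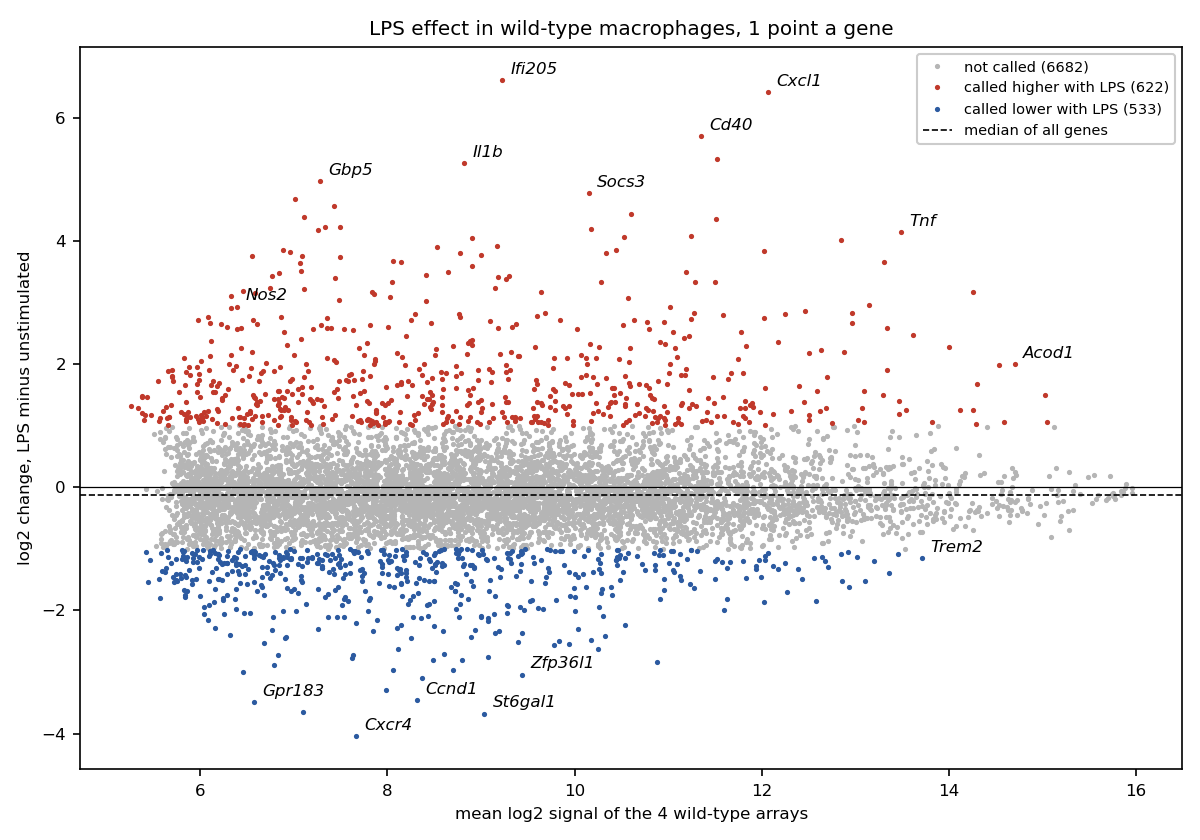
Log2 change of each of 7837 genes (LPS minus unstimulated, vertical axis) against its mean log2 signal over the 4 wild-type arrays (horizontal axis). Red points are the 622 genes called higher and blue points the 533 called lower; the rises reach 6.62, the falls -4.04, and the dashed line is the median of all genes at -0.13.

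Detection alone separated part of the response. On both LPS arrays and neither unstimulated array 188 genes were detected, of which 115 were called higher. In the opposite pattern 226 genes were detected on the unstimulated arrays alone, of which 106 were called lower. These genes entered through the group where they were bright, so their direction was set by the detection rule. For such genes the fold is given as a lower bound, the brighter group against the detection floor of the dimmer arrays. Among the 6960 genes detected on all 4 arrays 472 were called higher and 396 lower.

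Of the secreted inflammatory cytokines and growth factors, 12 of 20 tested genes rose and 1 fell. The list had a median change of 2.64, or 1.92 with undetected members at their bound, beside -0.13 over all genes. Its 14 members detected on all 4 arrays had 6 higher and 1 lower and a median of 0.77, and all 29 members on the array, with no filter, had 13 higher and 1 lower and a median of 0.79. The pyrogenic cytokine Il1b had a log2 signal of 11.47 and 11.43 on the LPS arrays, against 6.34 and 6.04 on the unstimulated arrays. Those arrays did not overlap, and the change was 5.26 ± 0.13 (adjusted p = 3.27e-08). Tnf, the cytokine that drives acute inflammation, read 15.65 and 15.47 with LPS, against 11.43 and 11.41 without. Its change of 4.14 ± 0.13 started from a level well above background in the unstimulated cells (adjusted p = 1.37e-07). The LPS signals of Tnf lay close to the highest of any gene on those arrays, 16.01. Il6, which drives the acute-phase response, was undetected without LPS at 4.83 and 4.97 and read 7.45 and 7.66 with it. It was at least 3.18-fold higher. The vasoconstrictor gene Edn1 was likewise detected on LPS arrays alone, at 9.41 and 9.29, and was at least 11.1-fold higher. Of the members called higher 6 were seen only with LPS. The member that fell was the growth factor Pdgfb, at -1.02 ± 0.12, a change that was -0.95 without background correction, -0.90 with median scaling and -0.97 without replicate 2 of the unstimulated cells, each short of 2-fold. The anti-inflammatory cytokine Il10 was detected on 0 of 4 arrays and Ifnb1, a type I interferon, on 1, so neither entered the test. No probe was named Il12b or Mki67 here.

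Among the chemokines 11 of 16 rose and 0 fell, with a median change of 1.99. Of the members called higher 2 were seen only with LPS. The 12 detected on all 4 arrays had 8 higher and a median of 2.58. All 22 on the array, with no filter, had 11 higher and a median of 0.87. Cxcl1, an attractant of neutrophils, had a signal of 15.30 and 15.25 on the LPS arrays, against 8.85 and 8.87 on the unstimulated arrays. At 6.41 ± 0.10 this was one of the 2 largest fitted rises (adjusted p = 7.05e-09). Cxcl2, its neighbour on chromosome 5 with the same receptor, read 14.15 and 14.22 with LPS, against 8.80 and 8.92 without, a change of 5.33 ± 0.13. A further probe of Cxcl2 gave 6.23. Cxcl10, which attracts T cells and is induced by interferon, changed by 4.35 ± 0.16 and its other probe by 4.32. Ccl5, an attractant of T cells and monocytes, read 14.91 and 14.81 with LPS, against 10.94 and 10.73 without, a change of 4.02 ± 0.12. The promoters of Cxcl1 and Cxcl2 are shown for a kappaB consensus, the DNA motif bound by NF-kappaB. Among genes called higher with that motif in a single RefSeq promoter window, these had the largest fitted rises. RefSeq places the 250 bases before their starts at chr5:90890995-90891244 and chr5:90903649-90903898 on the plus strand of GRCm38.p6, and capitals mark the motif.
Cxcl1: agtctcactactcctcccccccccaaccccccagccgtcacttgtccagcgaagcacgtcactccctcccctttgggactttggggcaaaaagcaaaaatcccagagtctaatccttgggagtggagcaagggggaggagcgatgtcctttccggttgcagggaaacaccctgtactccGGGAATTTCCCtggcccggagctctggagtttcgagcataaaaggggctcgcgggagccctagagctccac
Cxcl2: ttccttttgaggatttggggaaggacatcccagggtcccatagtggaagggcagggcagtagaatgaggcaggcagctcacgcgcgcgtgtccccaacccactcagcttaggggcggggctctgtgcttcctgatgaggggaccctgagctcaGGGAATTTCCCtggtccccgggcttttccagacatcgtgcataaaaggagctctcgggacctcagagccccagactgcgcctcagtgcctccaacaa
In both windows the capitals are the same run of 11 letters, in which a match on the plus strand overlaps one on the minus strand. It begins at position -71 in Cxcl1 and at -97 in Cxcl2, counted back from the start.

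**Figure D2:**
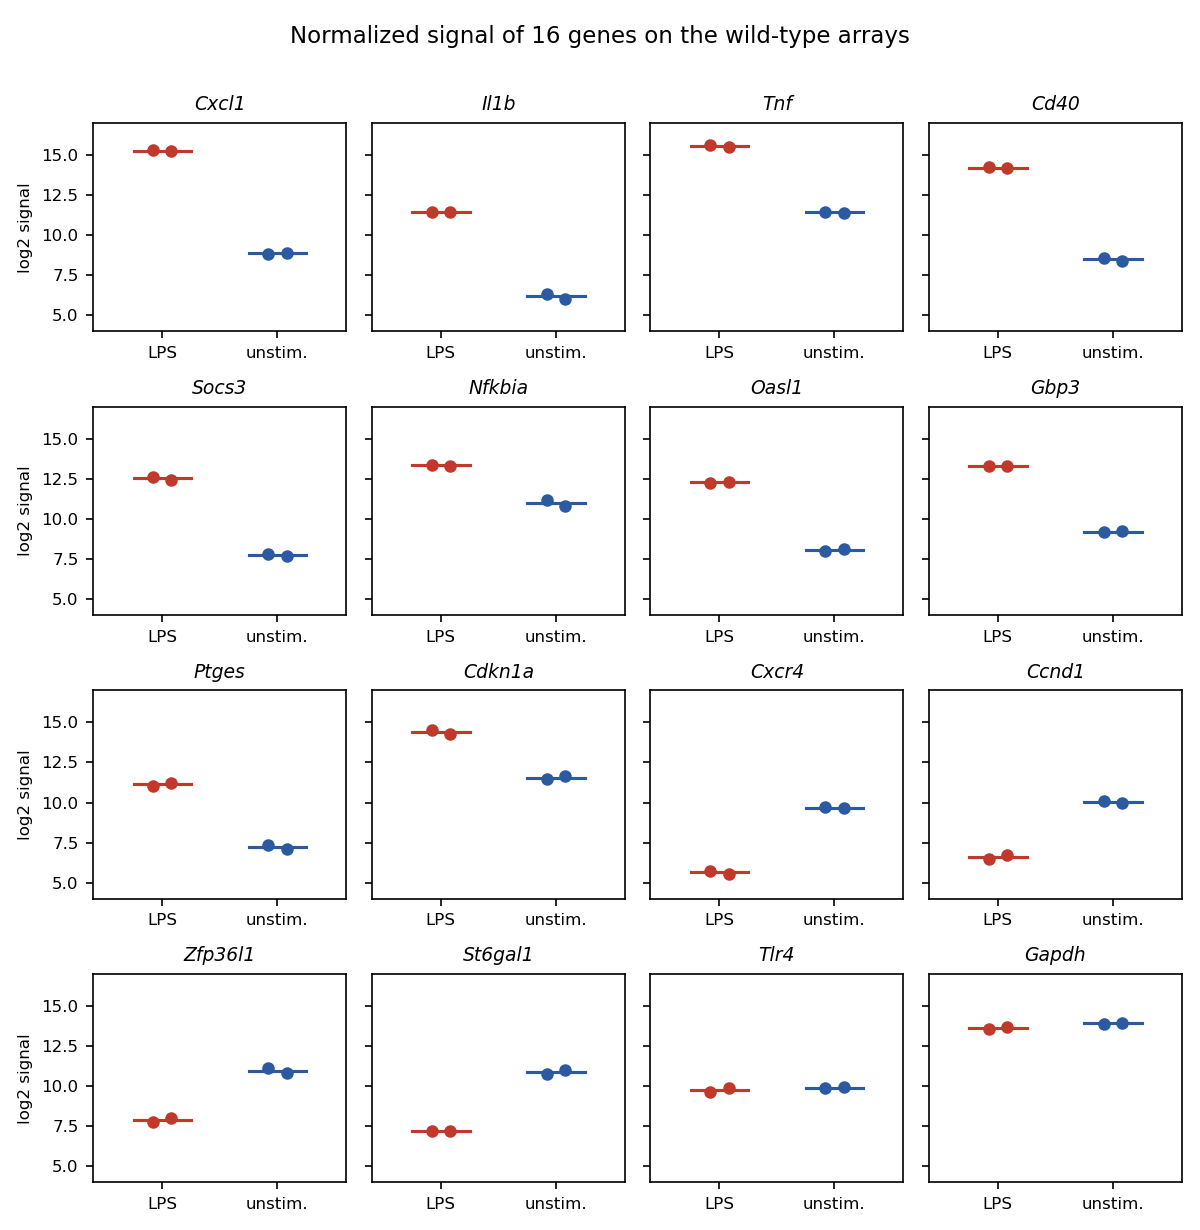
Normalized log2 signal (vertical axis) of 16 genes on the 2 LPS and 2 unstimulated wild-type arrays; points are arrays and lines the mean of a group. In 14 panels the group means lie at least 2.36 apart, as for Cxcl1 at 15.30 and 15.25 with LPS against 8.85 and 8.87 without. In those of Tlr4 and Gapdh they lie within 0.5 of each other, though the Gapdh arrays of the 2 groups do not overlap.

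On the receiving side the receptors moved both ways. G protein-coupled receptors of macrophages, which include the chemokine receptors, had 8 of 31 tested members higher and 10 lower, with a median of -0.09. Among the 21 detected on all 4 arrays 6 were higher and 5 lower, with a median of 0.33. The most negative fitted change of the response, which rests on an undetected LPS signal, was that of Cxcr4, the receptor for Cxcl12 that holds leukocytes in bone marrow. It read 5.71 and 5.57 with LPS, against 9.71 and 9.65 without, was undetected with LPS, and was at least 14-fold lower. Cnr2, a cannabinoid receptor, and Gpr183, a receptor for oxysterols, were also undetected with LPS and at least 8.26-fold and 5.45-fold lower. The fractalkine receptor Cx3cr1 was at least 2.41-fold lower, though without background correction its change was -0.80 and it was not called. Of the 10 members called lower 5 were detected on the unstimulated arrays alone. In the other direction, Ccrl2, an atypical receptor that binds the chemoattractant chemerin, read 12.62 and 12.49 with LPS, against 8.50 and 8.50 without, a change of 4.06 ± 0.15. Hcar2, the receptor for nicotinic acid, was undetected without LPS and at least 7.69-fold higher, and the orphan receptor Gpr85 changed by 2.82 ± 0.17. The promoter of Cxcr4 is shown as that of the gene with the most negative fitted change. The window is chr1:128592300-128592549, minus strand, of GRCm38.p6, and capitals mark matches to the TATA box letters TATAAA on either strand, which overlap.
Cxcr4: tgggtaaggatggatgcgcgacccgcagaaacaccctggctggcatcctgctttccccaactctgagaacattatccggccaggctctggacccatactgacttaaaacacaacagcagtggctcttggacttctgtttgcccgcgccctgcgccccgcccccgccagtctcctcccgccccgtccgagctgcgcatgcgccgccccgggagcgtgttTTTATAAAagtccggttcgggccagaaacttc
No match to the kappaB, ISRE, AP-1 or C/EBP letters is in this window or the 50 bases after it.

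The proteins that sense LPS and other microbial products had 10 of 30 tested members higher and 1 lower, with a median of 0.37. The LPS receptor itself was not among those called. Tlr4 read 9.64 and 9.87 with LPS, against 9.85 and 9.92 without, its partner Ly96 9.94 and 10.24 with LPS, against 9.93 and 9.79 without, and Cd14 15.47 and 15.74 with LPS, against 14.70 and 14.56 without. The change of Tlr4 was -0.13 ± 0.12 (adjusted p = 0.372) and that of Ly96 0.23 ± 0.13 (adjusted p = 0.184). Cd14 changed by 0.97 ± 0.13, with an adjusted p of 0.000315 but just under 2-fold. Its LPS signals lay close to the highest of any gene on those arrays, 16.01, and whether this held its change down was not tested. Cd14 passed 2-fold with median scaling, at 1.03, with cyclic loess, at 1.05, without LPS replicate 1, at 1.11, and without unstimulated replicate 1, at 1.03. Receptors for other ligands did rise. Nlrp3, the sensor of an inflammasome, was undetected without LPS and at least 11.2-fold higher with signals of 9.31 and 9.42. Zbp1, a sensor of Z-form nucleic acids, changed by 2.77 ± 0.17, and Tlr1, which pairs with Tlr2 on bacterial lipoproteins, by 2.71 ± 0.16. Trem2, a receptor for lipids, was the member that fell, at 13.21 and 13.06 with LPS, against 14.29 and 14.28 without, a change of -1.15 ± 0.11.

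Downstream of the receptors, 7 of 34 Toll-like receptor signalling proteins rose and 0 fell, with a median of 0.45. Regulators led them: the ubiquitin ligase Peli1 at 2.10 ± 0.12 and Irak3, a kinase-dead member of the Irak family that dampens signalling, at 1.81 ± 0.20. The kinase Map3k8, which activates the ERK pathway, changed by 1.32 ± 0.13. Myd88, the adaptor, read 13.10 and 13.44 with LPS, against 12.50 and 11.94 without, a change of 1.05 ± 0.19. That call rested on single arrays. It was 0.89 without LPS replicate 2 and 0.77 without unstimulated replicate 2, and 0.99 on the mean of its probes, each short of 2-fold.

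NF-kappaB subunits, their inhibitors and other feedback genes had 14 of 23 members higher and 0 lower, with a median of 1.19. Nfkbia, the inhibitor that NF-kappaB itself induces, read 13.39 and 13.31 with LPS, against 11.17 and 10.81 without, a change of 2.36 ± 0.16 (adjusted p = 5.86e-06). Tnfaip3, which edits ubiquitin chains to end signalling, read 12.13 and 12.11 with LPS, against 9.33 and 9.54 without, a change of 2.68 ± 0.13. Nfkbiz, a nuclear inhibitor-like protein that helps induce secondary genes, had the largest change of the list, 3.85 ± 0.14 (adjusted p = 2.05e-07). The survival gene Bcl2a1d changed by 2.86 ± 0.11. Bcl2a1 genes are near-identical copies, so its probe may read its relatives too.

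Transcription factors of the immediate-early and stress response were split, with 11 of 32 higher and 3 lower and a median of 0.32, or 0.19 over the 30 members detected on all 4 arrays. Fos, the AP-1 subunit that is induced within minutes of many stimuli, was lower on the LPS arrays. It read 8.87 and 9.0 with LPS, against 11.56 and 11.57 without, and the change was -2.63 ± 0.12 (adjusted p = 5.75e-07). Its partner Jun also fell, at -1.57 ± 0.11, as did Klf2, a factor that restrains macrophage activation, at -1.38 ± 0.14. Egr1, another early gene, was undetected without LPS and at least 2.10-fold higher, though by 0.63 and below 2-fold without background correction. Batf2 changed by 3.41 ± 0.14 and Mycl by 3.02 ± 0.15, both transcription factors, and Maff, a small Maf protein, was at least 2.87-fold higher. Hif1a, the oxygen-sensed factor that LPS is known to raise in macrophages, read 9.44 and 9.66 with LPS, against 7.75 and 7.64 without, a change of 1.86 ± 0.13. Myc was detected on 0 of 4 arrays.

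Most genes of the interferon arm rose. Of the antiviral interferon-stimulated genes 39 of 49 rose and 1 fell, with a median of 1.78, or 1.67 with undetected members at their bound. All 9 tested guanylate-binding proteins and immunity-related GTPases, enzymes that attack vacuoles holding microbes, rose with a median of 2.92. Among 44 antiviral genes with an adjusted p under 0.05 and a change above 0, whatever its size, were the 39 called, where 19.9% of all genes passed that looser rule. Oasl1, of the oligoadenylate synthetase-like proteins, read 12.23 and 12.31 with LPS, against 8.01 and 8.14 without, a change of 4.2 ± 0.13. The GTPase Mx1 was undetected without LPS and at least 10.7-fold higher, with signals of 9.48 and 9.12. The GTPase Gbp3 read 13.28 and 13.28 with LPS, against 9.18 and 9.22 without, a change of 4.08 ± 0.11 (adjusted p = 6.68e-08), and Gbp7 was at least 7.11-fold higher. Ifitm6 was the member that fell, with a change of -1.38 ± 0.16, or -0.85, short of 2-fold, without background correction.

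Ifi205, of the p200 family of interferon-inducible proteins, had the largest fitted change of all genes. It read 12.51 and 12.55 with LPS, against 6.02 and 5.81 without, a change of 6.62 ± 0.23 (adjusted p = 1.78e-07), with detection on 1 of the 2 unstimulated arrays. Its 3 probes ranged from 2.58 to 6.62, all called higher, a gap of 4.04 log2 units. Gbp5, detected on the LPS arrays alone at 9.74 and 9.80, was at least 14.8-fold higher. The promoters of both are shown for their match to the interferon-stimulated response element (ISRE), a motif bound by Irf proteins. They are chr1:174031756-174032005 on the minus strand for Ifi205 and chr3:142496684-142496933 on the plus strand for Gbp5, of GRCm38.p6, with the ISRE match in capitals.
Ifi205: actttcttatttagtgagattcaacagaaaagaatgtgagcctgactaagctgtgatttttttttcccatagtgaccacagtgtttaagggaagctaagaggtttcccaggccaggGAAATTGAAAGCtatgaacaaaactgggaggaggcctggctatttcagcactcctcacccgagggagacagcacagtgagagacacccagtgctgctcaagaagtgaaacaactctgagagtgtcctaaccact
Gbp5: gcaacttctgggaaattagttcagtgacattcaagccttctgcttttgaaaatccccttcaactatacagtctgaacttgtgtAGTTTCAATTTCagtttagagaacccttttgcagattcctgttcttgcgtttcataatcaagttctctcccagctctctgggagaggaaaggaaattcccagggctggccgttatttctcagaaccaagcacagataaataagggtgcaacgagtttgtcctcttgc
The match begins at position -134 in Ifi205 and, on the opposite strand, at -167 in Gbp5. The Gbp5 window also holds a kappaB match from -77.

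Regulators of the interferon and cytokine response had 9 of 33 members higher and 2 lower, with a median of 0.34. Socs3, an inhibitor of signalling by the Il6 receptor family, read 12.62 and 12.45 with LPS, against 7.82 and 7.71 without, a change of 4.77 ± 0.11 (adjusted p = 3.27e-08). Usp18, which removes Isg15 from proteins and blocks the interferon receptor, changed by 2.75 ± 0.11. Irf1 read 14.58 and 14.68 with LPS, against 12.17 and 11.91 without, a change of 2.59 ± 0.14 on its brightest probe, and its 5 probes ranged from 2.59 to 3.70. Irf7, the factor that amplifies type I interferon, changed by 1.38 ± 0.12. In the opposite direction Il6ra, the receptor chain for Il6, read 7.01 and 7.05 with LPS, against 9.52 and 9.45 without, a change of -2.45 ± 0.11, and Irf8, a factor of monocyte and macrophage identity, changed by -1.51 ± 0.14.

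Called genes of antigen presentation and costimulation were all higher with LPS. In MHC class I presentation 6 of 19 genes rose and 0 fell, and all 19 had a change above 0, where 3158 of all 7837 genes did. The peptide transporter subunits Tap2 and Tap1 changed by 2.14 ± 0.14 and 1.93 ± 0.13, and the related chaperone Tapbpl by 1.57 ± 0.11. Among MHC class II and costimulatory genes 9 of 20 rose and 0 fell. Cd40, the costimulatory receptor that T cells engage, read 14.22 and 14.19 with LPS, against 8.61 and 8.4 without, a change of 5.70 ± 0.14 (adjusted p = 3.27e-08). All 4 of its probes were called higher, with changes from 1.85 to 5.70. The activation marker Cd69 read 12.86 and 12.79 with LPS, against 8.51 and 8.26 without, a change of 4.44 ± 0.14, and Cd274, the ligand of the inhibitory receptor PD-1, changed by 2.23 ± 0.12.

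**Figure D3:**
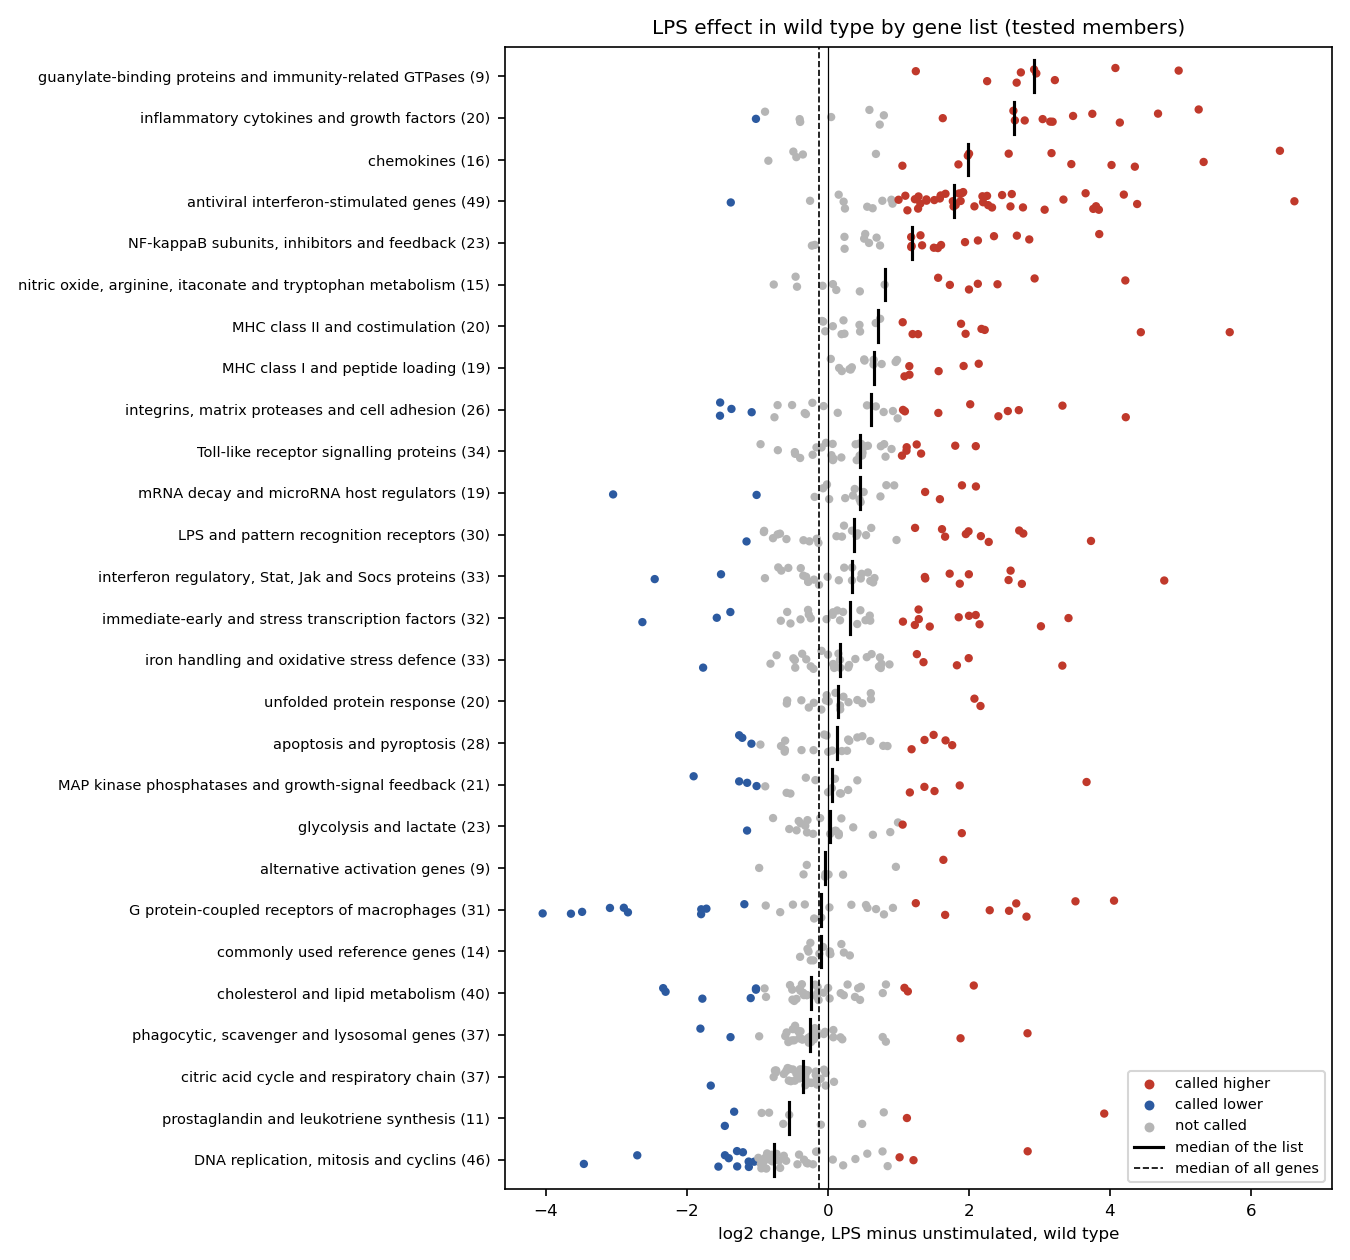
Log2 change with LPS in wild type (horizontal axis) of the tested members of 27 gene lists, ordered by median, with the number tested in brackets. Red members were called higher, blue ones lower and grey ones neither; all 9 guanylate-binding and immunity-related GTPases lie above 1, and the list of DNA replication, mitosis and cyclins has the lowest median, -0.76.

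Enzymes that make effector metabolites were next. Of genes for nitric oxide, arginine, itaconate and tryptophan metabolism 7 of 15 rose and 0 fell, with a median of 0.81, or 0.45 with undetected members at their bound. Among the 10 members detected on all 4 arrays 3 rose, and the median was 0.096. Nos2, the inducible nitric oxide synthase, read 7.87 and 7.85 with LPS, against 5.29 and 4.57 without; it was undetected without LPS and at least 3.93-fold higher. Acod1, which makes itaconate, was already bright and read 15.71 and 15.69 with LPS, against 13.64 and 13.76 without, a change of 2.00 ± 0.12. Its LPS signals lay close to the highest of any gene on those arrays, 16.01. The amino acid oxidase Il4i1 was detected with LPS alone and at least 11.7-fold higher, and the mitochondrial arginase Arg2 changed by 2.41 ± 0.21, with detection on 1 of 2 unstimulated arrays. Arg1, the other arginase, was detected on 0 of 4 arrays.

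Prostaglandin and leukotriene synthesis had 2 of 11 genes higher and 2 lower, beside 7.94% and 6.80% of all genes. Ptges, which makes prostaglandin E2, read 11.04 and 11.23 with LPS, against 7.34 and 7.09 without, a change of 3.92 ± 0.17 (adjusted p = 5.17e-07). Ptgs2, the inducible cyclooxygenase that supplies it, was dim, at 6.0 and 6.42 with LPS, against 5.09 and 5.09 without, and undetected without LPS. It was at least 1.25-fold higher, and its change was 0.44 without background correction, 0.67 with a larger offset and 0.90 without LPS replicate 2, each short of a call. The lysosomal phospholipase Pla2g15 read 11.22 and 11.30 with LPS, against 12.70 and 12.74 without, a change of -1.46 ± 0.11, and the diacylglycerol lipase Daglb changed by -1.33 ± 0.15.

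Glycolysis genes had 2 of 23 members higher and 1 lower, near the shares over all genes, with a median of 0.03. At an adjusted p under 0.05 of any size 6 were higher and 6 lower, beside 19.9% and 30.7% of all genes. Ldha, lactate dehydrogenase, read 14.15 and 13.85 with LPS, against 13.99 and 13.94 without, a change of 0.03 ± 0.13 (adjusted p = 0.851). The sugar transporter Slc2a6 changed by 1.90 ± 0.11. Slc16a3, which exports lactate, changed by 1.06 ± 0.13 and Slc2a3, a glucose transporter, by -1.14 ± 0.15. Without background correction those 2 changed by 0.60 and -0.62 and lost their calls; without LPS replicate 2 Slc16a3 was at 0.92 and without LPS replicate 1 Slc2a3 at -0.96. In the citric acid cycle and respiratory chain 36 of 37 genes had a change below 0, where 4679 of all 7837 genes did. The median of the list was -0.35, beside -0.13 over all genes. At any size 20 of these 37 were lower at an adjusted p under 0.05 and 0 higher, where 30.7% of all genes were lower by that rule. Only Ppargc1b, a coactivator of mitochondrial genes, passed 2-fold, at -1.66 ± 0.15, and without background correction it was at -0.996, short of a call.

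Iron handling and defence against oxidants had 5 of 33 genes higher and 1 lower, beside 7.94% and 6.80% of all genes. The cystine transporter subunit Slc7a11, which feeds glutathione synthesis, read 13.20 and 13.13 with LPS, against 9.78 and 9.89 without, a change of 3.33 ± 0.12 (adjusted p = 1.99e-07), and its 4 probes ranged from 2.56 to 3.33. Hmox1, which degrades haem, read 12.02 and 12 with LPS, against 10.00 and 10.03 without, a change of 2.00 ± 0.10. Txnrd1, thioredoxin reductase, changed by 1.83 ± 0.20 and Sod2, mitochondrial superoxide dismutase, by 1.26 ± 0.11. Steap3, an endosomal iron reductase, was at least 2.02-fold lower, and without background correction its change was -0.75, short of 2-fold.

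Lipid metabolism had falls and rises, with 3 of 40 genes higher and 6 lower and a median of -0.24, or -0.15 over the 34 members detected on all 4 arrays. Over all genes 7.94% were called higher and 6.80% lower. With cyclic loess the list had 3 higher and 3 lower, and without background correction 2 and 3. The nuclear receptor Pparg read 8.0 and 8.06 with LPS, against 10.41 and 10.31 without, a change of -2.33 ± 0.13 (adjusted p = 2.13e-06). Abcg1, a cholesterol exporter, read 5.49 and 6.72 with LPS, against 8.35 and 8.46 without, so the LPS arrays differed by more than 1 log2 unit, and the change was -2.30 ± 0.31 with detection on 1 of them. Lpin1, a phosphatidate phosphatase, was at least 1.81-fold lower. Ch25h, which makes the oxysterol 25-hydroxycholesterol, rose by 2.07 ± 0.12, at 8.57 and 8.36 with LPS, against 6.39 and 6.41 without. The nuclear receptor Ppard changed by 1.09 ± 0.14, and Mylip, which degrades the LDL receptor, was at least 1.49-fold higher. Short of 2-fold without background correction were Lpin1 at -0.75 and Mylip at 0.45; Mylip was at 0.96 without LPS replicate 2, and Ppard at 0.98 in the authors' deposited table.

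Phagocytic, scavenger and lysosomal genes had 2 of 37 higher and 2 lower, beside 7.94% and 6.80% of all genes, with a median of -0.25. The pair of low-affinity Fc receptors for IgG moved apart. Fcgr2b, the inhibitory one, read 12.74 and 12.64 with LPS, against 9.85 and 9.86 without, a change of 2.83 ± 0.11 (adjusted p = 2.69e-07). Fcgr3, the activating one, read 10.09 and 9.93 with LPS, against 11.84 and 11.79 without, a change of -1.81 ± 0.11 (adjusted p = 3.12e-06). Complement factor B, Cfb, rose by 1.88 ± 0.13 and Gas6, a bridge between dying cells and their receptors, fell, with a change of -1.38 ± 0.12. Csf1r, the receptor for the macrophage growth factor, read 13.25 and 13.57 with LPS, against 13.26 and 13.43 without, a change of 0.06 ± 0.14 (adjusted p = 0.759). Of the genes of alternative activation 1 of 9 rose, the transglutaminase Tgm2 at 1.64 ± 0.11, and 0 fell, beside the same shares over all genes.

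Genes of DNA replication, mitosis and the cyclins were the list with the lowest median, -0.76: 3 of 46 were higher and 11 lower. At any size 29 of the 46 were lower at an adjusted p under 0.05, where 30.7% of all genes were. Ccnd1, cyclin D1, which macrophage growth factor induces, read 6.45 and 6.72 with LPS, against 10.10 and 9.99 without, a change of -3.46 ± 0.13 (adjusted p = 2.2e-07). E2f2, a factor of S-phase entry, read 7.31 and 7.20 with LPS, against 10.03 and 9.88 without, a change of -2.70 ± 0.13, and Tk1, thymidine kinase, fell, with a change of -1.55 ± 0.12. Cdkn1a, the inhibitor p21 of cyclin-dependent kinases, went the other way, at 14.52 and 14.25 with LPS, against 11.46 and 11.64 without, a change of 2.83 ± 0.13. Ccnd2, cyclin D2, was at least 1.43-fold higher and Rbl1, a relative of the retinoblastoma protein, changed by 1.02 ± 0.13. The calls of these last 2 were lost without background correction, at 0.48 and 0.76, and Rbl1 was at 0.96 without LPS replicate 2 and 0.93 without unstimulated replicate 2. Without background correction 1 member of the list was called higher and 5 lower.

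The proteins that degrade messenger RNA included relatives moving in opposite directions. Zfp36, which binds AU-rich elements of cytokine messages and speeds their decay, rose by 1.38 ± 0.11, at 13.15 and 13.13 with LPS, against 11.82 and 11.70 without. Its paralog Zfp36l1 fell, at 7.79 and 8.03 with LPS, against 11.10 and 10.81 without, a change of -3.04 ± 0.14 (adjusted p = 5.37e-07). The ribonuclease Zc3h12a changed by 1.90 ± 0.13 and the decapping enzyme Dcp2 by 1.59 ± 0.20, while Zc3h12c was undetected without LPS, and at least 1.99-fold higher with it. In all 4 of 19 rose and 2 fell, beside 7.94% and 6.80% of all genes. The second fall, of the deadenylation factor Tob1, was -1.01 ± 0.11 and lay under 2-fold without background correction (-0.56), with cyclic loess (-0.99), and without replicate 1 of either group (-0.998 for LPS, -0.99 for unstimulated). Without background correction Dcp2 and Zc3h12c were at 0.90 and 0.93.

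Phosphatases and other brakes on growth signals had 5 of 21 members higher and 4 lower, beside 7.94% and 6.80% of all genes. Dusp2, a nuclear phosphatase of MAP kinases, read 9.86 and 9.91 with LPS, against 6.35 and 6.09 without, a change of 3.67 ± 0.19, while its relatives Dusp7 and Dusp3 fell, with changes of -1.26 ± 0.14 and -1.14 ± 0.12. On the mean of its 4 probes Dusp3 was at -0.39, short of 2-fold. Dusp8 changed by 1.51 ± 0.16 and Rgs16, a regulator of G protein signalling, was at least 1.86-fold higher; without background correction these were 0.84 and 0.79. Inpp5d, the lipid phosphatase SHIP1, fell, with a change of -1.90 ± 0.15, at 7.44 and 7.09 with LPS, against 9.19 and 9.15 without.

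Adhesion and matrix genes had 9 of 26 members higher and 4 lower, with a median of 0.62. Among the 22 detected on all 4 arrays 6 were higher and 4 lower, with a median of 0.04. Vcam1, a ligand of integrins, was detected with LPS alone, at 9.53 and 9.67, and was at least 13.1-fold higher. The collagenase Mmp13 read 11.87 and 12.01 with LPS, against 8.57 and 8.66 without, a change of 3.33 ± 0.13, and the plasminogen activator inhibitor Serpinb2 was at least 2.73-fold higher. The falls included the integrin subunit Itgb5 at -1.53 ± 0.17, the protease Adam8 at -1.53 ± 0.15 and the metalloprotease inhibitor Timp2 at -1.37 ± 0.12.

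In the unfolded protein response 2 of 20 rose and 0 fell, beside 7.94% and 6.80% of all genes. The 2 were Chac1, which degrades glutathione, at 2.17 ± 0.13 and Ppp1r15a, which restores translation after stress, at 2.08 ± 0.12. Apoptosis and pyroptosis genes had 5 of 28 higher and 3 lower, beside the same shares. At an adjusted p under 0.05 of any size 10 were higher and 8 lower, beside 19.9% and 30.7% of all genes. Casp4, the caspase that senses LPS inside the cell, read 12.56 and 12.48 with LPS, against 10.64 and 10.88 without, a change of 1.76 ± 0.13. Mlkl, the executor of necroptosis, changed by 1.67 ± 0.11 and Pml by 1.5 ± 0.12. The falls were those of Pycard, the inflammasome adaptor, at -1.26 ± 0.15, Bbc3, a killer protein of the Bcl2 family, at -1.21 ± 0.12, and the survival protein Bcl2l1 at -1.08 ± 0.14. Without background correction those 3 were at -0.69, -0.95 and -0.68 and were not called. The mean of its 3 probes put Bcl2l1 at -0.43, and it was short of 2-fold without LPS replicate 2 (-0.97) and without unstimulated replicate 1 (-0.94).

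Genes often used as references lay within a narrow range. Of 14 tested, 0 were called in either direction, with changes from -0.39 to 0.31, and 0 were higher and 1 lower at an adjusted p under 0.05 of any size. Gapdh read 13.56 and 13.69 with LPS, against 13.86 and 13.97 without, a change of -0.29 ± 0.11 (adjusted p = 0.0604). Actb read 15.41 and 15.31 with LPS, against 15.33 and 15.33 without, a change of 0.04 ± 0.11 (adjusted p = 0.814), while its 4 probes ranged from -1.40 to 0.56, 1 of them called lower.

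Outside all lists, Tsc22d1, a transcriptional regulator, was detected with LPS alone at 9.79 and 9.64 and was at least 14.2-fold higher. Pnp2, a purine nucleoside phosphorylase, was also LPS-only, at 9.30 and 9.37, and at least 11-fold higher. Rasgrp1, an activator of Ras, read 10.96 and 10.90 with LPS, against 6.94 and 6.82 without, a change of 4.05 ± 0.14. Bcl2a1c, a survival gene of the Bcl2a1 copies, changed by 3.90 ± 0.14, Phlda1 by 3.65 ± 0.20 and Snn by 3.60 ± 0.17. Undetected without LPS were Gfi1, a transcriptional repressor, at least 8.42-fold higher, the membrane glycoprotein Tpbg at least 8.01-fold, the gap junction protein gene Gja1 at least 7.93-fold and the activating receptor Tarm1 at least 7.59-fold.

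Falls outside the lists were led by St6gal1. This enzyme, which adds sialic acid to glycans, read 7.18 and 7.22 with LPS, against 10.77 and 10.98 without, a change of -3.68 ± 0.13 (adjusted p = 1.96e-07). Gcnt1, which builds branched O-glycans, read 6.92 and 7.25 with LPS, against 10.17 and 9.60 without, a change of -2.80 ± 0.22. The palmitoyltransferase Zdhhc14 changed by -3.29 ± 0.11, the dynein heavy chain Dnah11 by -2.96 ± 0.23 and the Rab regulator Tbc1d2 by -2.80 ± 0.13. Mical1, an oxidase of actin, changed by -2.77 ± 0.19, Klhl6 by -2.76 ± 0.17 and Ccsap by -2.73 ± 0.14. Tal2 and the pseudogene Hmga2-ps1 were undetected with LPS and at least 5.0-fold and 4.24-fold lower.

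Where a gene had several kept probes they mostly moved alike. Of 384 such genes called on the brightest probe, 374 had changes of 1 sign on all probes, and in 253 (65.9%) every other probe was called the same way. The median gap between the highest and lowest probe was 0.46 log2 units. Tmem132a was the only one of 2775 genes with probes called in opposite directions, at 1.03 and -1.30. Its brightest probe read 7.86 and 7.80 with LPS, against 6.92 and 6.68 without, and it lost its call without background correction (0.63) and without unstimulated replicate 2 (0.90). Sgk3, a kinase, changed by 1.32 ± 0.11 on the brightest of 6 probes, which ranged from -0.50 to 2.20.

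Called genes also lay side by side in the genome. Among 7736 protein-coding genes with a position in the RefSeq annotation, taken in chromosome order with untested genes skipped, 21 runs of 3 or more neighbours were all called higher, holding 74 genes, and 4 runs were all called lower, holding 12. The longest run had 7 genes on chromosome 1, the p200 family members Ifi214, Ifi213, Ifi207, Ifi204, Mndal, Ifi211 and Ifi205, with changes from 1.28 to 6.62. Runs of 4 included Gbp5, Gbp7, Gbp3 and Gbp2 on chromosome 3, from 2.96 to 4.97, and Trim21, Trim34a, Trim30a and Trim30d on chromosome 7, from 1.75 to 3.09. Tap1, Psmb8, Tap2 and H2-Ab1 formed another on chromosome 17, within the MHC. A run of Klf3, Tlr1, Tlr6 and Fam114a1 on chromosome 5 joined genes of different families. The chemokines Ccl2, Ccl7 and Ccl12 on chromosome 11 and Ifit2, Ifit3 and Ifit1bl1 on chromosome 19 gave runs of 3. The falls included Ttyh2, Cd300a and Cd300lb on chromosome 11. Members of such families resemble each other in sequence, and whether a probe reads its neighbours was not tested. These runs were named after their values were seen, and no test was made of them.

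Promoters were described with letters alone. RefSeq gave a single window (250 bases before to 50 after the start) for 5111 of the 7837 genes, 381 called higher, 324 lower and 4406 neither. The kappaB consensus was matched in 33 of the 381 (8.66%), against 4.63% of promoters of genes called lower, 4.58% of those not called and 4.26% of all 22862 single-start promoters of the table. The ISRE consensus was matched in 30 of the 381 (7.87%), against 0.309% of those called lower, 0.726% of those not called and 0.967% of all. Genes with an ISRE match included Rsad2, Isg15, Irgm2, Stat2 and Trim21, and those with a kappaB match Nfkbia, Nfkbie, Rel, Il6, Csf1 and Sod2. Both motifs were matched in Gbp5, Cxcl10 and Bst2. For AP-1 (TGANTCA) the share was 8.66% of those called higher, beside 7.98% of all promoters but 4.15% of those tested and not called. For C/EBP (TTNNGCAA) it was 10.8%, beside 10.8% of all and 7.97% of those not called, and for TATAAA 12.9%, beside 14.8% of all and 6.83% of those not called. Promoters differed in base composition too: 71.1% of those called higher, 76.5% of those called lower and 88.4% of those not called held 10 or more CG pairs, against 42.9% of all. Both strands were searched, and a match is no evidence of binding.

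**Figure D4:**
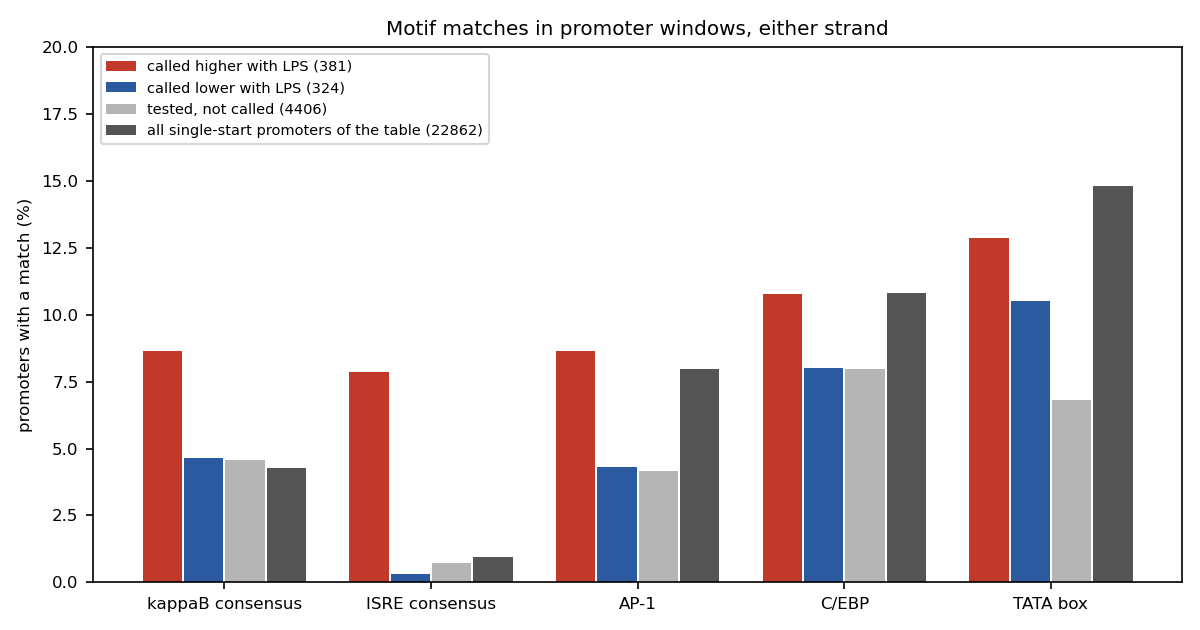
Share of promoter windows of 300 bases with a match on either strand (vertical axis, percent) for 5 motifs, by class of gene, with the number of promoters in brackets. The ISRE consensus stands at 7.87% of genes called higher and under 1% in the other 3 classes. Other motifs differ by a smaller ratio, though TATAAA runs from 6.83% of genes not called to 14.8% of all promoters.

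The wild-type response was then set against that of the arrays labelled Bcl6 knockout. The Bcl6 probe itself read 10.75 and 10.99 with LPS, against 10.95 and 10.92 without in wild type, and 9.92 and 9.93 with LPS, against 12.60 and 12.33 without, on the arrays labelled knockout, so the unstimulated signal was not lower there. Since the deleted stretch of the gene is unstated, this probe leaves the genotype unsettled. In wild type its change with LPS was -0.07 ± 0.13 (adjusted p = 0.708). With LPS 556 genes were called higher (7.09%) and 571 lower (7.29%) on the labelled knockout arrays. Called higher in both were 422 genes, 67.8% of the wild-type list and 75.9% of the other, and called lower in both were 349, 65.5% and 61.1%. Probes were kept by detection on the wild-type arrays alone. Genes detected only on the labelled knockout arrays could therefore not enter its list, and its counts and the shared percentages depend on that filter. The number called higher in one genotype and lower in the other was 0, and the genotypes share no array.

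The difference of the LPS effects was tested itself, as wild type minus labelled knockout. It passed at an adjusted p under 0.05 and 2-fold in 259 genes (3.30%), 146 above 0 (1.86%) and 113 below (1.44%), a split that moved with the processing. It was 306 and 63 with median scaling between arrays and 133 and 134 with cyclic loess, 154 and 156 with detection on 2 of all 8 arrays, 115 and 133 with no filter, 48 and 53 without background correction and 45 and 51 in the authors' deposited table. Of the genes called for LPS in wild type 151 differed: as fitted, 78 rose further in wild type, 31 rose less far, 37 fell further and 5 fell less far. Genes called in wild type are more often those with the larger change there, so these counts do not compare the genotypes. At least 1 of the 4 groups was undetected in 33, 14, 16 and 2 of them. Among the 12 cytokines called higher 5 had a smaller fitted rise in wild type and 1 a larger one, and 4 of the 5 were undetected in unstimulated wild type, where the rise is only a bound. Among 7 genes of nitric oxide, arginine, itaconate and tryptophan metabolism 5 had a smaller fitted rise and 0 a larger one, with 4 of the 5 undetected in some group. Of 39 antiviral genes called higher, 5 had a larger fitted rise in wild type, 4 of them undetected in some group, and 1 a smaller one. All 12 cytokines were called higher on the labelled knockout arrays too, as were 31 of the 39 antiviral genes and 13 of 14 NF-kappaB genes. Of the 11 cell-cycle genes called lower in wild type 10 were called lower there as well.

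Among genes detected in all 4 groups, Il1b differed by -1.03 ± 0.18 (adjusted p = 0.0122). It read 15.86 and 15.96 with LPS, against 9.62 and 9.63 without, on the labelled knockout arrays. Those LPS signals lay close to 16.01, the highest of any gene on the wild-type LPS arrays. In unstimulated wild type Il1b, at 6.34 and 6.04, lay close to the lowest detected signals there, 5.81 and 5.96. Whether these limits narrowed either rise of Il1b was not tested. Upp1, a uridine phosphorylase, read 7.35 and 7.63 with LPS, against 6.31 and 6.17 without, in wild type, and 10.43 and 10.73 with LPS, against 6.6 and 6.44 without, on the labelled knockout arrays. Its difference was -2.81 ± 0.21, though its wild-type change was 0.68 and not called without background correction. The fall of Zfp36l1 was larger in wild type, with a difference of -1.70 ± 0.19, while that of Fos was smaller, with a difference of 1.42 ± 0.17.

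Where a group was undetected the size of the difference is not determined, and the signals are given instead. Il6 read 7.45 and 7.66 with LPS in wild type, against 12.95 and 13.09 with LPS on the labelled knockout arrays. Without LPS it was undetected on both wild-type arrays and on 1 of 2 labelled knockout arrays. Il1a, a cytokine related to Il1b, was at 8.23 and 8.10 with LPS in wild type, against 15.60 and 15.60 with LPS on the labelled knockout arrays, where it was also detected without LPS at 9.61 and 9.52. Ifi205, at 12.51 and 12.55 with LPS in wild type, read 5.23 and 6.02 with LPS, against 4.74 and 4.53 without, on the labelled knockout arrays, with detection on 1 of those 4. Pnp2 was detected on none of them, at 4.57 and 4.61 with LPS, against 4.57 and 4.59 without. Casp4, bright in wild type, was also undetected on all 4, at 4.58 and 4.83 with LPS, against 4.74 and 4.65 without. Cxcr4, at least 14-fold lower with LPS in wild type, read 8.34 and 8.46 with LPS, against 10.44 and 10.09 without, on the labelled knockout arrays, a change of -1.86.

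**Figure D5:**
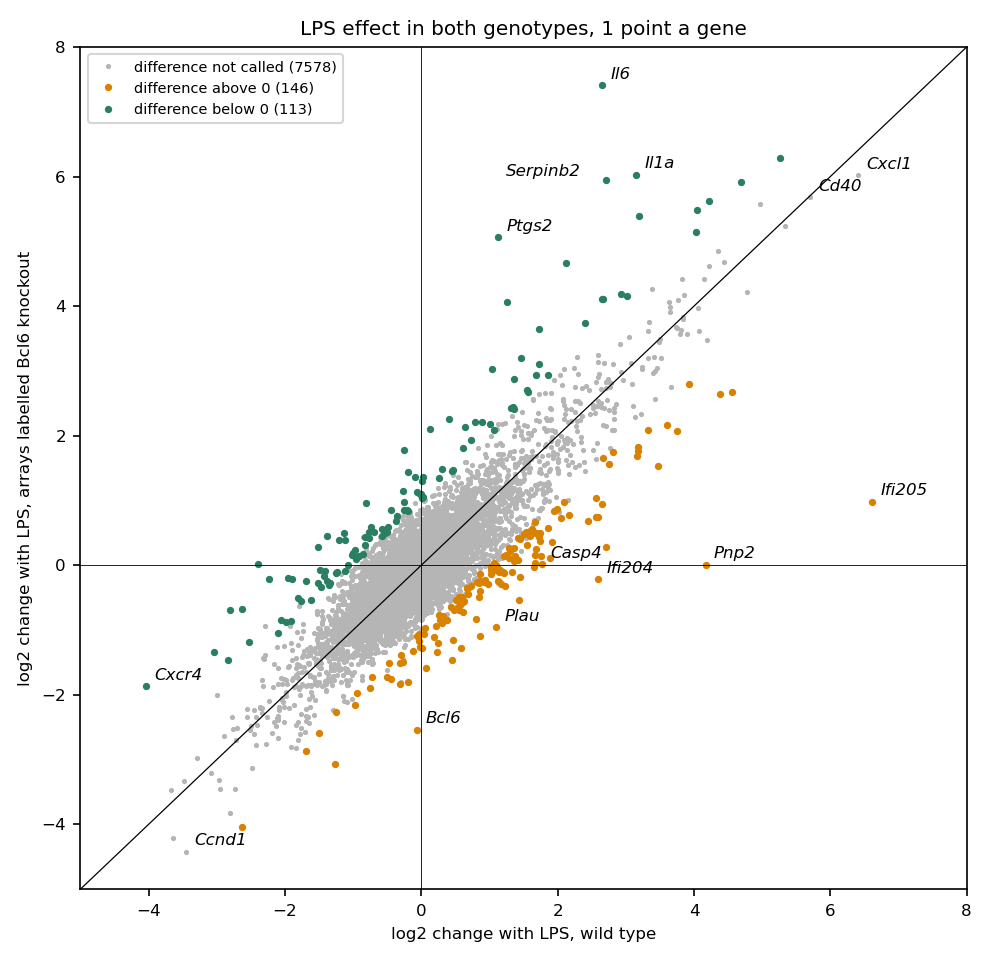
Log2 change with LPS in wild type (horizontal axis) and on the arrays labelled Bcl6 knockout (vertical axis), 1 point a gene, with the line of equal change. Orange points are the 146 genes with a tested difference above 0 and green points the 113 below 0; Ifi205 lies at 6.62 in wild type and 0.98 on the other arrays, and Il6 at 2.65 and 7.41, all as fitted, including groups with no detected array.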

How the data were processed

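Total RNA of the cells was labelled and hybridised to Illumina bead arrays, per the labels' protocols. The authors deposited a mean bead intensity and a detection p-value for each probe and array, not normalized between arrays, and a processed table of linear intensity. No label or header says how the processed table was normalized. The submitters' processing notes name GenomeStudio without a version. No deposited column (0) belonged to another series. Depth has no meaning for arrays, and their number limits the precision.

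The deposited intensity was background-corrected with limma's nec (offset 16, negative controls inferred from the detection p-value) and quantile-normalized over 8 arrays on the log2 scale. Genes were named through the platform annotation, and symbols updated to RefSeq's GRCm38.p6. Of 34903 listed probes 34885 had 1 symbol and 18 several, and 34818 matched RefSeq. A model of 4 group means, without a replicate block, was fitted to all 8 arrays (limma 3.58.1, R 4.3.3) with 4 residual and 4.75 prior degrees of freedom. P-values were adjusted by Benjamini-Hochberg over 13382 probes. A fold is a bound where detection failed on both arrays of one group. The bright group's mean was then set against the floor of each dim array, its lowest signal among detected probes or the gene's own value, whichever was higher. In simulated data of the LPS contrast over 13382 probes, all of 100 set 1.5 log2 units apart and all of 100 set 3 apart were called, beside 1 false call. The simulated noise was normal, independent and drawn from the fitted spread, and all other probes were left unchanged. It held no detection floor, normalization step or spread between mice or cultures, so it checks the fit alone and not the error rates in these data.

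Replicate numbers did not pair the arrays: deviations of same-numbered arrays correlated from -0.029 to 0.015 over pairs of groups. The members and lists were chosen with earlier results of these data known. Named were genes fixed by name, up to 3 called genes a list and direction, 10 a direction outside lists, 6 a direction for the genotype difference, and 4 with disagreeing probes. Alternatives were other background corrections, normalizations, filters, probe rules, the processed table, the block and leaving out arrays. Figures were drawn with matplotlib 3.10.9.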

Additional observations from a re-analysis of the deposited data

Results flagged for a closer look

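Of 152 named genes, 44 had an LPS effect that differed between wild type and the arrays labelled Bcl6 knockout in limma's test of the difference itself, with an adjusted p of at most 0.0497. Over all genes the share was 3.30%, and the named genes were picked in part for such differences and for large changes, so their share is set by that choice. Values are the wild-type change minus the labelled knockout change, log2 units as fitted and without bounds. Groups of 2 arrays are too small for a check of single arrays that stand apart.

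Fitted rises that were larger in wild type were led by Ifi205 at 5.63, Pnp2 at 4.16, Ifi204 at 2.81, Rasgrf1 at 2.43 and Plau at 2.05. Next in size among them were Usp8 at 1.98, Tsc22d1 at 1.89, Casp4 at 1.75, Mx1 at 1.75 and Gfi1 at 1.67. Smaller differences of this kind were those of Snn at 1.43, Mylip at 1.40, Chac1 at 1.40, Hif1a at 1.28 and Mmp13 at 1.23. Then came Usp18 at 1.19, Ptges at 1.12, Zc3h12c at 1.12, Rbl1 at 1.09 and Egr1 at 1.04. The last of them were Pml at 1.02 and Mlkl at 1.01.

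Fitted rises that were smaller in wild type were led by Il6 at -4.75, Ptgs2 at -3.95, Serpinb2 at -3.24, Il1a at -2.88 and Upp1 at -2.81. After them stood Slc7a2 at -2.54, Rasgrp1 at -1.44, Il4i1 at -1.40, Arg2 at -1.34 and Nos2 at -1.25. The others were Edn1 at -1.24, Mycl at -1.13, Ccl5 at -1.11, Map3k8 at -1.10 and Il1b at -1.03. Falls that went further in wild type were Cxcr4 at -2.18, Tbc1d2 at -2.11, Zfp36l1 at -1.70, Fcgr3 at -1.30 and Klf2 at -1.14. Fos fell in both genotypes and less far in wild type, at 1.42.

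The gene Bcl6 itself differed by 2.47, from its fall on the labelled knockout arrays. On those arrays Casp4, Pnp2, Ifi204, Rasgrf1, Zc3h12c and Mylip were detected with neither treatment, so their differences set a change in wild type against background signals. Among the 15 rises smaller in wild type 8 were of genes undetected on both unstimulated wild-type arrays (Il6, Ptgs2, Serpinb2, Il1a, Slc7a2, Il4i1, Nos2 and Edn1), as were 9 of the 22 larger ones. For all of these the wild-type rise is a lower bound and the size of the difference is not determined. Cxcr4 was undetected with LPS in wild type, where its fall is likewise a bound. The difference of Usp8 rests on wild-type arrays whose leaving out ends its call for LPS: the wild-type change was 1.38 without LPS replicate 1 and 1.20 without unstimulated replicate 1, past 2-fold but not past the adjusted p.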

How the results depend on the processing

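Without background correction, calls for LPS in wild type numbered 947 probes and 638 genes, and for the difference between genotypes 101 genes. The report's counts are 1930, 1155 and 259, and all 638 genes were among the 1155. The authors' deposited processed table gave 951, 640 and 96, and an offset of 50 gave 163 for the difference. The cause was not tested. The other filters and normalizations kept all 3 counts within 1.5 times. Without 1 array at a time, probes called were 1943 to 1989, genes 1156 to 1191 and differences 213 to 241; a group left with 1 array was assumed to vary like the others. The share of called genes that were higher was 53.9%, between 51.8% and 61.3% in the alternatives, and 64.4% relative to the median of all genes. With the replicate number as a replicate block the counts were 1929, 1155 and 255, and 0 of 152 named genes changed call. Signs turned in genes near 0. Bcl6 was at 0.058 with median scaling and 0.066 with cyclic loess, and from -0.19 to 0.052 without 1 array. On the mean of its probes Actb was at -0.23 and Tmem132a, called higher on its brightest, at -0.13. Without 1 array Actb ran from -0.012 to 0.083, Ldha from -0.12 to 0.18 and Csf1r from -0.10 to 0.21. Of the 152 named genes 26 lost their call without background correction, 24 in the authors' deposited table and 14 with the larger offset, and 0 to 6 in each other setting, where detection on all 4 arrays left only 113 of them to test. Among 27 lists the count of calls moved by over 1.5 times in 6 without background correction, 4 in the authors' deposited table, 3 with detection on all 4 arrays (inflammatory cytokines included), 2 with the larger offset, 2 with cyclic loess and 0 or 1 in the others. Signal over background limits what can be said of dim genes.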
